A study of Mus musculus with 1115 samples.

Results

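The 10 genes described here encode proteins that copy, lay down or oxidise DNA methylation and the core of Polycomb repressive complex 2 (PRC2). They were chosen by name from the 16839 genes of the count table: Dnmt1, Dnmt3a, Uhrf1, Tet1, Tet2, Tet3, Ezh1, Ezh2, Eed and Suz12, all of which were measured. Cells were taken from cortices of C57BL/6 mice at embryonic day 13.5, after in utero electroporation of a plasmid in which the broadly active CAG promoter drives mRFP and the Hes5 promoter, a Notch target, drives GFP. Of 1115 single cells, 65.6% carried both colours (Hes5_GFP group) and 34.4% mRFP alone (CAG_mRFP group). All of them carried the plasmid, so there was no untreated or mutant group, and GFP reports the plasmid's promoter and not the endogenous gene. By the authors' annotation 57.04% were radial glial cells (RGCs, the cortical stem cells), 17.1% intermediate progenitor cells (IPCs, their neurogenic daughters) and 25.8% excitatory neurons (ENs).

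Methylation of CpG sites is laid down de novo by Dnmt3a and copied after replication by Dnmt1, which Uhrf1 brings to half-methylated DNA, while Tet enzymes oxidise methylated cytosine as a step toward its removal. PRC2 methylates lysine 27 of histone H3, a mark of repressed chromatin. Its catalytic subunit is Ezh2, typical of dividing cells, or Ezh1, typical of cells that have left the cycle, and Eed and Suz12 are core partners of either. In the developing cortex these systems are known for roles in the timing of neuron and glia production.

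Promoter sequences are shown for members that differ in how their levels followed the progenitor classes: Uhrf1 and Dnmt1, which were called higher in progenitors than in ENs, and Ezh1 and Suz12, which were not. RefSeq windows of the 0.25 kilobases before the annotated starts (GRCm38.p6, the same assembly as mm10) were found for all 10 members, 15 windows in all. They were searched on both strands for 4 words bound by E2F factors, the regulators of S-phase genes: TTTCCCGC, TTTGGCGC, TTTCGCGC and TTTGCCGC. Such a word was present in 3 of 15 member windows, in Uhrf1, Dnmt1 and Suz12, and in 1.86% of 32851 windows of all genes. Capitals mark the word or its reverse complement, and sequences run 5′ to 3′ on the gene's strand. For Dnmt1, whose word lies in an annotated exon, 28 bases are given.
Uhrf1, chr17:56304063-56304312, plus strand: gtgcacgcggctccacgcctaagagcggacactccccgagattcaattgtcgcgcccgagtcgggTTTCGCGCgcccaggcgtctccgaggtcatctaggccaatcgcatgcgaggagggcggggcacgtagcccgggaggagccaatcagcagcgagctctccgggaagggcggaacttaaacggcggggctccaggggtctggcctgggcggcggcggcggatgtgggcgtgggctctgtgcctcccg
Dnmt1, chr9:20952825-20952852, minus strand: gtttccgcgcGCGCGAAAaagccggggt
Suz12, chr11:79992856-79993105, plus strand: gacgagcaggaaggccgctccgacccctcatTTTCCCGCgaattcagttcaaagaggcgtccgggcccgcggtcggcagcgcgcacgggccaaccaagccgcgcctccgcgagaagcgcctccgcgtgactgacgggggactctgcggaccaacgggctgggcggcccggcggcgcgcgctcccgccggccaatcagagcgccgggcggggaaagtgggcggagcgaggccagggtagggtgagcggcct
Ezh1, chr11:101226464-101226713, minus strand: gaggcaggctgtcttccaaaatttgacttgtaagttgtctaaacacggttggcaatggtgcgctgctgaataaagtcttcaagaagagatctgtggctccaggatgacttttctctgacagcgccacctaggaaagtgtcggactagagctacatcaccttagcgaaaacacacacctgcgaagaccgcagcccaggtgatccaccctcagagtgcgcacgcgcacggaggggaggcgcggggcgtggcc
The Ezh1 window holds none of the 4 words. Nor do the windows of Eed and Dnmt3a, which were also called higher in RGCs than in ENs. The other windows of Uhrf1 and Dnmt1, not shown, hold none either. A CCAAT box was found in 7 of 15 member windows and 33.8% of all windows, and the TTTGAA word of the cell cycle homology region in 3 of 15 and 16%. These are matches of letters, not measured binding. Uhrf1 itself lies at chr17:56303321-56323486, Dnmt1 at chr9:20907209-20959888, Dnmt3a at chr12:3806007-3914443, Eed at chr7:89954654-89980983, Ezh2 at chr6:47530139-47595341 and Ezh1 at chr11:101191115-101226463 (GRCm38).

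The modified Smart-seq2 protocol reads full-length transcripts without molecular identifiers, and counts per cell had a median of 264021 (range 814 to 1982807). Levels are given as CPM, the summed counts of a class on a sort day scaled to a common total. The sort day was the replicate and needed at least 10 cells of a class, which left 4 days for RGCs and IPCs and days 2 to 4 for ENs. The labels name no animals, so p-values measure the spread between sort days. Summed markers set the classes apart: 11 radial glia genes gave 5535 CPM in RGCs, 1012 in IPCs and 393.3 in ENs, 8 IPC genes gave 351.6, 3277 and 2057, and 10 neuron genes gave 257.5, 2653 and 8062. Endothelial, erythroid and meningeal genes summed to 13.7, 14.9 and 8.002 CPM in RGCs. Of the listed Cajal-Retzius genes, Nhlh2 and Reln summed to 125.2 CPM in ENs (75.4 to 245.4 over days), most of it from Nhlh2. The others on that list, Trp73, Lhx1, Lhx5 and Calb2, were absent from the count table, so the sum cannot show whether Cajal-Retzius cells were present. The part of all these genes in the results was not tested. A plate of 80 CAG_mRFP cells of day 3 was shallow (median 30740 counts per cell, the next lowest plate 130702), and author cluster 7, with 71 RGCs among its 72 cells, had a median of 1168 detected genes.

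The maintenance pair Dnmt1 and Uhrf1 and the PRC2 subunit Eed were higher in both progenitor classes than in neurons. Dnmt3a was called higher in RGCs than in ENs, and its IPC and EN values overlapped. Between RGCs and ENs, edgeR's quasi-likelihood test (adjusted p below 0.05) called 4 of 10 members higher and 0 lower, where 5.4% of 10889 genes were called higher and 3.66% lower. The median log2 ratio was 0.25 over the members and 0.26 over all genes. Between IPCs and ENs, 3 members were called, all higher, where 3.16% of genes were. Between RGCs and IPCs edgeR called 0 members, where 1.43% of genes were called. An unadjusted p below 0.05 was found for 1 member and 12.1% of genes, and DESeq2 and limma each called 1 member, beside 11% and 5.34% of genes. How the classes were assigned is not given in the sources used here, so the tests may not be independent of these cells' expression.

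**Figure D1:**
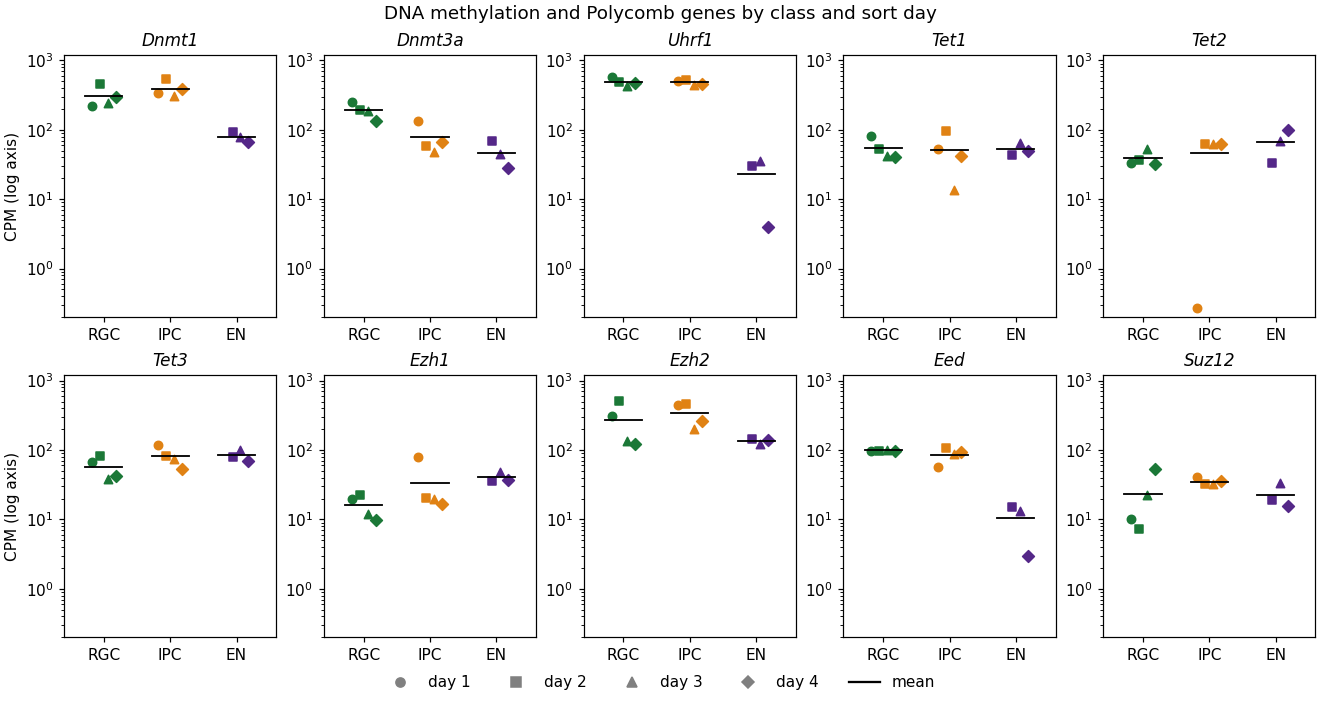
CPM of each member (log axis) in RGCs, IPCs and ENs, with a symbol for each sort day and a bar at the mean over days. Dnmt1, Uhrf1 and Eed are lower in ENs on days 2 to 4 than in any RGC or IPC sum, and the Tet genes overlap between the classes.

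Uhrf1, the reader of half-methylated DNA, measured 577.5, 488.7, 423.4 and 468.01 CPM in RGCs on days 1 to 4. In IPCs it measured 509.9, 517.1, 435.2 and 464.6 CPM, and in ENs 29.7, 35.8 and 4.03 CPM on days 2 to 4. RGC and IPC values overlapped, and each was far above the highest EN value. The log2 ratio was 4.57 ± 0.65 (SE) for RGCs against ENs (23.8-fold, edgeR adjusted p = 0.00368) and 4.55 ± 0.65 for IPCs against ENs (adjusted p = 0.00647). The RGC to EN ratio was 5.26 ± 0.80 without day 3 and 3.83 ± 0.30 without day 4, and the IPC to EN ratio 5.21 ± 0.79 and 3.82 ± 0.30. The IPC to EN call was lost without day 2 (edgeR adjusted p = 0.0559). A Uhrf1 count was found in 73.7% of RGCs, 77.5% of IPCs and 7.64% of ENs. With each sufficiently deep cell thinned to 50000 counts, the shares were 72.9%, 74.3% and 6.30%, which leaves out 70 RGCs, 13 IPCs and 40 ENs with fewer counts. In ENs 1 cell held 33.7% of the Uhrf1 counts.

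Dnmt1, the maintenance methyltransferase, measured 220.4, 451.7, 240.8 and 300.995 CPM in RGCs on days 1 to 4. In IPCs it measured 339.1, 533.9, 303.3 and 386.8 CPM, above the RGC value of the same day on 4 of 4 days. In ENs it measured 91.8, 77.8 and 66.5 CPM on days 2 to 4, below every progenitor sum. The log2 ratio was 1.99 ± 0.21 for RGCs against ENs (3.97-fold, edgeR adjusted p = 0.000892) and 2.38 ± 0.21 for IPCs against ENs (adjusted p = 0.000792). RGCs against IPCs gave -0.39 ± 0.18 (adjusted p = 0.440). A Dnmt1 count was found in 21.5% of ENs, beside 69.3% of RGCs and 80.1% of IPCs.

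Dnmt3a, the de novo methyltransferase, measured 250.2, 194.2, 187.5 and 135.5 CPM in RGCs on days 1 to 4. In IPCs it measured 135.8, 59.3, 48.7 and 66.2 CPM, below the RGC value on 4 of 4 days, and in ENs 67.9, 45.2 and 28.1 CPM on days 2 to 4. IPC and EN values overlapped, and the ENs stood below every RGC sum. The log2 ratio was 1.84 ± 0.36 for RGCs against ENs (3.59-fold, edgeR adjusted p = 0.0151). RGCs against IPCs gave 1.37 ± 0.31, which missed the threshold in edgeR (adjusted p = 0.0894) and passed it in DESeq2 (adjusted p = 0.0029). IPCs against ENs gave 0.47 ± 0.35 (edgeR adjusted p = 0.602). After thinning, 66.6% of RGCs, 32.1% of IPCs and 16.8% of ENs had a Dnmt3a count. The RGC to EN call was lost without day 3 (edgeR adjusted p = 0.149) or day 4 (0.157), and with the plate in place of the day as the unit (0.87 ± 0.54, adjusted p = 0.346; 1.26 ± 0.51 without the shallow plate).

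The Tet genes encode the oxidising enzymes, and edgeR called none between the classes. Tet1 measured 81.8, 53.6, 42.3 and 41.1 CPM in RGCs on days 1 to 4 and 42.8, 63.9 and 49.9 CPM in ENs on days 2 to 4. Tet2 measured 32.7, 37.1, 53.1 and 32.2 CPM in RGCs and 33.3, 68.5 and 100.1 CPM in ENs. Tet3 measured 67.3, 81.04, 37.7 and 42.3 CPM in RGCs and 80.3, 101.7 and 68.9 CPM in ENs. The classes overlapped for each of the 3 genes. The RGC to EN log2 ratios were -0.21 ± 0.63, -0.087 ± 1.31 and -0.75 ± 0.38 for Tet1, Tet2 and Tet3 (edgeR adjusted p = 0.895, 0.979 and 0.292). In IPCs, Tet1 ranged from 13.8 to 96.3 CPM, Tet2 from 0.274 to 62.5 and Tet3 from 52.5 to 117.1, with the low Tet2 value on day 1 alone.

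Eed, the PRC2 subunit that reads the complex's own mark, was the member of the complex that edgeR called. It measured 98.2, 97.1, 101.4 and 97.3 CPM in RGCs on days 1 to 4, the narrowest relative spread of the 10 members in RGCs. In IPCs it measured 56.8, 106.998, 88.3 and 92.5 CPM, and in ENs 15.3, 13.1 and 2.97 CPM on days 2 to 4, below all progenitor values. The log2 ratio was 3.51 ± 0.60 for RGCs against ENs (11.4-fold, edgeR adjusted p = 0.00856) and 3.28 ± 0.58 for IPCs against ENs (9.69-fold, adjusted p = 0.0182). A count was present in 41.2% of RGCs, 43.5% of IPCs and 4.86% of ENs. The RGC to EN call was lost without day 3 (edgeR adjusted p = 0.0907) or day 4 (0.0794), and in the cells of either sorted group alone. The IPC to EN call was lost without day 2 (0.0566), day 3 (0.163) or day 4 (0.164), and in Hes5_GFP cells alone. Without day 4 the IPC to EN log2 ratio was 2.66 ± 0.62. The 4 ENs of day 1, too few for the test, summed to 65.3 CPM with a count in 1 of them. The antisense gene E230029C05Rik shares 6.82% of the Eed exon bases, where reads cannot be told apart without strand.

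Suz12, the scaffold of PRC2, measured 10.1, 7.34, 22.3 and 53.8 CPM in RGCs on days 1 to 4, 40.8, 31.99, 32.6 and 35.2 CPM in IPCs, and 19.1, 33.4 and 15.7 CPM in ENs on days 2 to 4. RGC values ran from below to above those of both other classes. The RGC to EN log2 ratio was -0.17 ± 0.84 (edgeR adjusted p = 0.938), and its sign turned under several alternatives.

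Ezh2, the catalytic subunit of dividing cells, measured 312.4, 513.6, 136.7 and 123.7 CPM in RGCs on days 1 to 4 and 443.7, 462.6, 200.9 and 262.001 CPM in IPCs. In ENs it measured 144.9, 123.9 and 138.5 CPM on days 2 to 4. RGCs were above ENs on days 2 and 3 and below them on day 4, while IPCs were above ENs on 3 of 3 days. The log2 ratio was 0.59 ± 0.35 for RGCs against ENs (edgeR adjusted p = 0.363) and 1.04 ± 0.34 for IPCs against ENs (adjusted p = 0.163; 0.0467 in DESeq2, which called 14.3% of genes). Ezh2 counts were found in 46.9% of ENs. The median cell had 790303, 634419, 191031 and 309499 counts on days 1 to 4, and 1 cell held 29.5% of the Ezh2 counts of the day 1 RGCs. In day 2 RGCs, the 16 cells of the first library preparation (median 989700 counts) gave 558.96 CPM, with 41.3% from 1 cell, and the 28 cells of the later one (median 88278 counts) gave 248.3 CPM. The part of depth and preparation in the spread between days was not tested.

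Ezh1, the alternative catalytic subunit, measured 19.4, 22.3, 12.2 and 9.97 CPM in RGCs on days 1 to 4 and 36.4, 48.04 and 36.98 CPM in ENs on days 2 to 4, without overlap and in the reverse order of Eed. In IPCs it measured 79.4, 20.1, 19.5 and 16.6 CPM, with day 1 apart. The RGC to EN log2 ratio of -1.71 ± 0.66 missed the threshold in edgeR (adjusted p = 0.166) and passed it in DESeq2 (adjusted p = 0.0181, 24% of genes called) and with at least 20 cells per sum (edgeR adjusted p = 0.0382, 19.7% called). It was -5.99 ± 3.32 in CAG_mRFP cells alone, where the RGC sum of day 3 held 0 counts. There the RGC sums ran from 0 to 60.1 CPM and overlapped the EN sums of 39.2 to 44.3 CPM. Only 3 CAG_mRFP RGCs held a count. With the plate as the unit the ratio was -4.20 ± 2.64. The gene was found in few cells: 5.03% of RGCs, 7.33% of IPCs and 9.03% of ENs had a count. A single cell held 20.4%, 21.5% and 17.6% of the Ezh1 counts of its class. Daily sums rested on fewer cells. The top cell held 100% of the counts of day 1 RGCs and 96.1% of those of day 2 ENs. It held 99.7% of those of the day 2 RGCs of the first library preparation. The 4 ENs of day 1, too few for the test, held 0 Ezh1 counts.

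**Figure D2:**
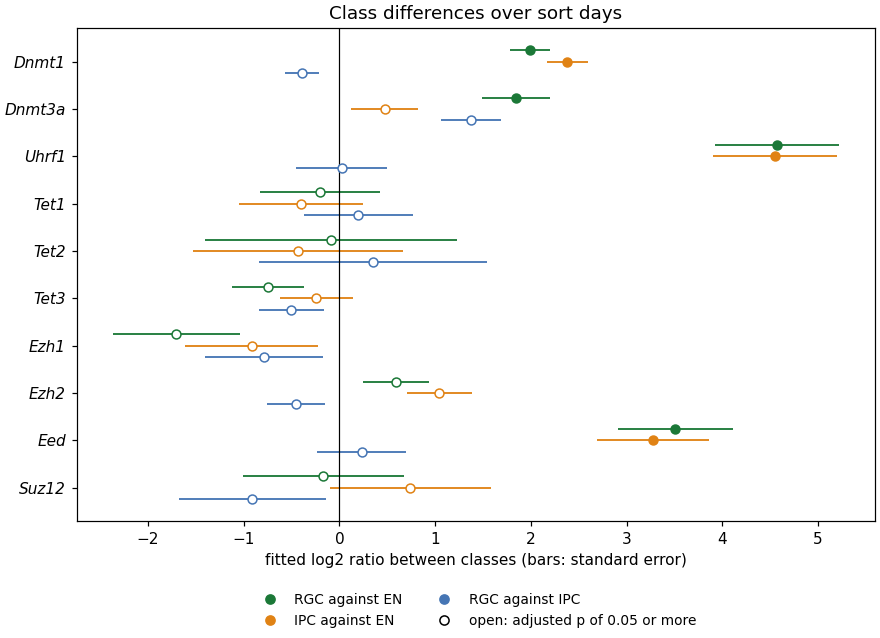
Fitted log2 ratios with standard errors for the 3 class comparisons, from edgeR with the sort day as a block; filled points have an adjusted p below 0.05. Filled are Dnmt1, Dnmt3a, Uhrf1 and Eed for RGCs against ENs, and Dnmt1, Uhrf1 and Eed for IPCs against ENs.

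The balance of Ezh2 to Ezh1 was lower in ENs than in either progenitor class on each of days 2 to 4. It is given as log2 of the ratio of their CPM, with 0.5 CPM added to each. RGCs had 3.97, 4.49, 3.44 and 3.57 on days 1 to 4, IPCs 2.47, 4.49, 3.33 and 3.94, and ENs 1.98, 1.36 and 1.89 on days 2 to 4. The means were 3.87 ± 0.48 (SD, n = 4 days), 3.56 ± 0.86 (SD, n = 4 days) and 1.74 ± 0.34 (SD, n = 3 days). As ratios per kilobase of annotated exon these are 16.3, 13.1 and 3.73, so Ezh2 was the more abundant transcript in every class, neurons included.

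Within days, RGCs exceeded ENs in this balance by 2.09 ± 0.42 and IPCs exceeded ENs by 2.18 ± 0.29 (SD, n = 3 days). An exact two-sided sign-flip permutation test gave p = 0.25 for both, the smallest that 3 days allow. RGCs and IPCs differed by 0.31 ± 0.82 (SD, n = 4 days; exact permutation p = 0.625, where 4 days allow no less than 1 in 8), and the sign turned without day 1 (-0.088). In G1 cells RGCs exceeded ENs by 1.24 ± 0.68 (SD, n = 2 days). Counts of both genes in the same cell were found in 22 RGCs, 12 IPCs and 15 ENs, so the balance is one of summed counts. Several daily balances rest on Ezh1 counts from about 1 cell. The top cell held 100% of those of day 1 RGCs and 96.1% of those of day 2 ENs. For day 2 cells of the first library preparation it held 99.7% in RGCs and 98.3% in IPCs.

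**Figure D3:**
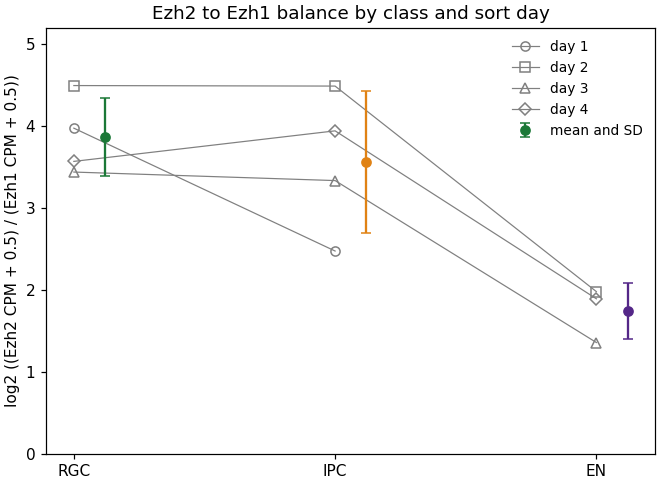
The log2 ratio of Ezh2 to Ezh1 CPM (0.5 added to each) by class, with a line for each sort day and coloured points for the mean and SD over days. The 3 EN values lie between 1.36 and 1.98, below all RGC and IPC values.

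Because 97.9% of ENs but 36.3% of RGCs were assigned to G1, RGCs and ENs were also compared within G1, where days 3 and 4 are shared. The assigned phases were G1, S and G2M, with no label for cells that have left the cycle. Cells labelled G1 may therefore differ in cycling state between the classes, and the comparison does not hold that state equal. Uhrf1 measured 724.4, 539.5 and 602.9 CPM in G1 RGCs on days 1, 3 and 4 and 33.01, 34.1 and 2.06 CPM in G1 ENs on days 2 to 4, a log2 ratio of 5.47 ± 1.23. Dnmt1 measured 222.7, 171.5 and 230.2 CPM in the RGCs and 101.2, 77.03 and 67.6 CPM in the ENs, a ratio of 1.43 ± 0.36. Eed measured 87.1, 103.95 and 90.9 CPM and 16.98, 13.2 and 3.03 CPM, a ratio of 3.65 ± 1.04. For these 3 genes the G1 values of the classes did not overlap. Nor did those of Dnmt3a, at 132.9 to 211.2 CPM in the RGCs and 23.4 to 45.7 CPM in the ENs, a ratio of 2.27 ± 1.34. Ezh1 lay just apart in the other direction, at 9.87 to 34.9 CPM and 35.7 to 48.4 CPM, a ratio of -1.69 ± 1.06. Ezh2 gave -0.40 ± 0.37, lower in RGCs on both shared days. Tet1, Tet2 and Tet3 gave -1.39 ± 0.91, -1.11 ± 0.64 and -1.07 ± 0.54, each also lower in RGCs on both shared days. EdgeR called 0 of 10 members (adjusted p = 0.0849 for Uhrf1, 0.112 for Dnmt1 and 0.147 for Eed), where 3.27% of genes were called; 3 members and 17.8% of genes had an unadjusted p below 0.05. DESeq2 called 4 (Dnmt1, Uhrf1, Tet3 and Eed), beside 23.4% of genes, and limma 2 (Dnmt1 and Uhrf1), beside 6.45%.

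Across the phases of RGCs, Uhrf1 had values that did not overlap. Uhrf1 belongs to a widely used list of S-phase genes, so it may have entered the authors' assignment of phases. It measured 859.0 and 814.4 CPM in S on days 3 and 4, 724.4, 539.5 and 602.9 CPM in G1 on days 1, 3 and 4, and 248.1, 299.99, 266.4 and 316.3 CPM in G2M on days 1 to 4. The G2M to G1 log2 ratio of -1.16 ± 0.19 was lower on 3 of 3 days and missed the threshold in edgeR (adjusted p = 0.207). It passed in DESeq2 (adjusted p = 2.92e-05, 1.96% of genes called) and in edgeR without author cluster 7 (adjusted p = 0.0334, 0.793% called).

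Dnmt1 measured 356.5 and 376.4 CPM in S-phase RGCs, 171.5 to 230.2 CPM in G1 and 159.2 to 311.9 CPM in G2M, with an S to G1 log2 ratio of 0.71 ± 0.31 (edgeR adjusted p = 1). Dnmt3a measured 132.9 to 211.2 CPM in G1, 207.4 to 208.8 in S and 117.4 to 545.003 in G2M, with overlap of all phases. Eed stayed between 87.1 and 131.4 CPM over all phases and days. Ezh2 gave 0.57 ± 0.29 for S and 0.31 ± 0.25 for G2M against G1. EdgeR called 0 members for S against G1, where 0.0% of genes were called (3.02% of genes and 0 members had an unadjusted p below 0.05; DESeq2 called 1.25% of genes and 0 members), and 0 for G2M against G1, where 0.102% were called (1 member, Uhrf1, and 4.59% of genes had an unadjusted p below 0.05).

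**Figure D4:**
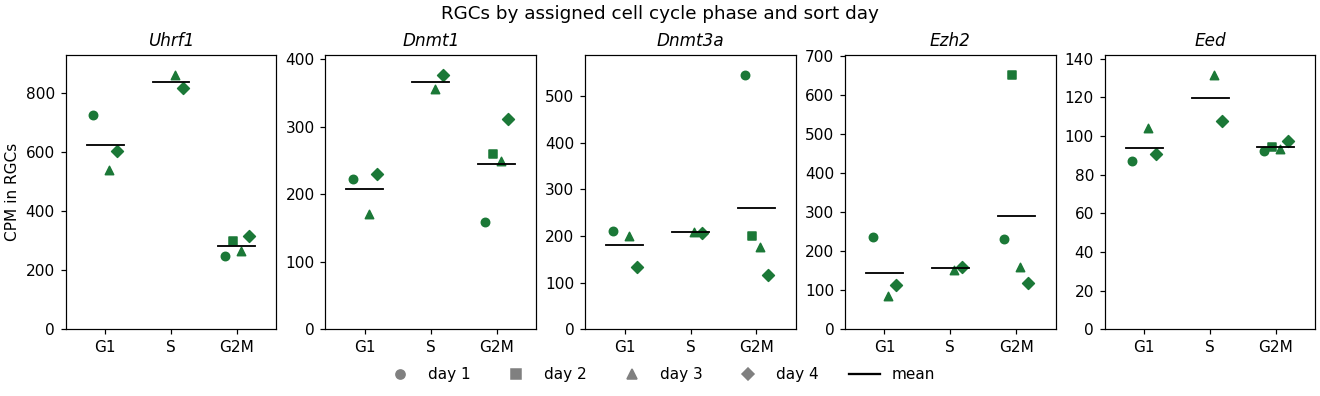
CPM in RGCs by assigned phase (G1, S, G2M), with a symbol for each sort day and a bar at the mean, for sums of at least 10 cells. Uhrf1 in G2M lies between 248.1 and 316.3 CPM, below every G1 and S value.

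In IPCs, Uhrf1 measured 569.8 and 719.8 CPM in G1 on days 3 and 4, 357.3, 295.7 and 347.1 CPM in G2M on days 2 to 4 and 705.3 CPM in S on day 4, given without a test. The S value lay inside the range of G1, and the G2M values below it.

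The authors' clusters are described without a test, since how they were made is not given in the sources used here and they may rest on these cells' expression. Cluster 1, mostly RGCs in G1, had the highest Uhrf1 level, 693.4 CPM (95% exact Poisson interval 687.4 to 699.5, which covers counting error only). Cluster 3, whose cells were all assigned to G2M, had Uhrf1 at 134.6 CPM and Dnmt1 at 133.7 CPM, below the RGC clusters 0 (441.9 and 357.4) and 1 (693.4 and 316.9). It held Dnmt3a in 75.8% of cells after thinning, the largest share of any cluster. Its pooled Dnmt3a level of 140.7 CPM was nonetheless the lowest of the RGC clusters, beside 186.4, 188.3 and 182.9 CPM in clusters 0, 1 and 7. The IPC clusters 4 and 6 had Dnmt1 at 406.9 and 350.03 CPM (226.3 and 303.5 in cluster 6 on days 3 and 4) and Dnmt3a at 60.7 and 70.96 CPM. The neuron clusters 2 and 5 had Uhrf1 at 12.2 and 17.001 CPM, with 71.1% of the counts of cluster 5 from 1 cell, and Ezh2 at 148.1 and 128.8 CPM. Cluster 7 paired Uhrf1 at 444.7 CPM with Dnmt1 at 33.1 CPM, and 1 cell gave 51.3% and 50.4% of these counts.

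**Figure D5:**
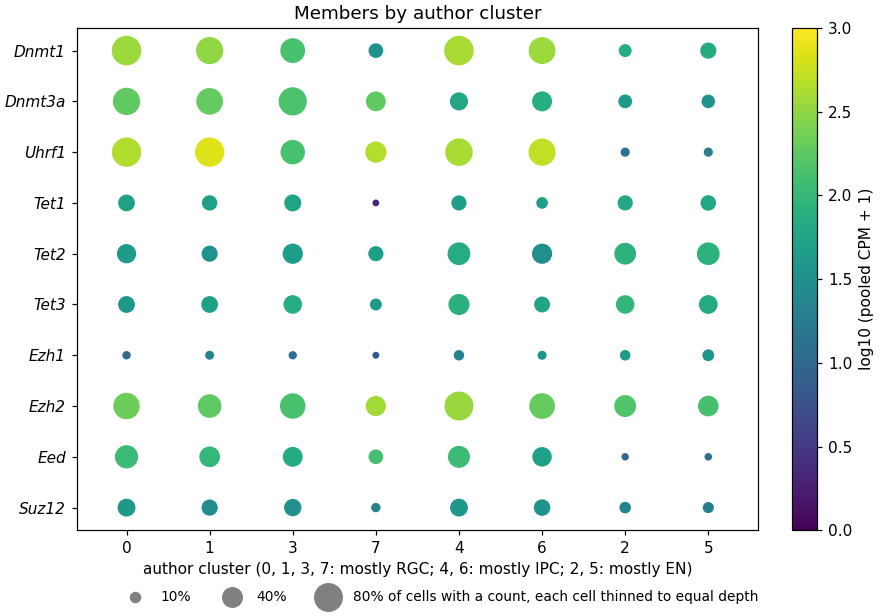
Members by author cluster: colour gives the pooled CPM on a log10 scale (1 CPM added), and area rises with the share of cells with a count after thinning to 50000 counts. Uhrf1 and Eed are low in the neuron clusters 2 and 5, and the pooled CPM of Dnmt3a is higher in clusters 0, 1, 3 and 7 than in the others. The share of cells with a Dnmt3a count was 35.3% in cluster 7, beside 35.9% in cluster 6.

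Levels of different genes can be compared per kilobase of annotated exon. In RGCs the order of pooled CPM per kilobase was Uhrf1 (109.8), Dnmt1 (37.96), Ezh2 (28.6), Eed (25.8), Dnmt3a (10.6) and Suz12 (6.52), with the Tet genes between 2.39 and 3.12 and Ezh1 at 1.76. In ENs Ezh2 (19.9) and Dnmt1 (9.77) came first, and the other 8 lay between 2.36 (Dnmt3a) and 5.17 (Ezh1). These lengths join all annotated transcripts and understate genes with long rare forms.

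The sorted groups carry a label that was not derived from the cells' transcripts. Dnmt3a measured 253.7, 153.6, 162.4 and 117.8 CPM in Hes5_GFP cells on days 1 to 4 and 131.5, 48.1, 53.6 and 38.9 CPM in CAG_mRFP cells. Eed measured 108.4, 101.1, 95.4 and 92.6 CPM in Hes5_GFP and 52.6, 38.4, 39.7 and 23.3 CPM in CAG_mRFP, and Uhrf1 628.1, 374.2, 401.04 and 449.4 CPM and 364.6, 311.9, 188.6 and 106.6 CPM. Eed and Uhrf1 did not overlap between the groups, and Dnmt3a did, through the CAG_mRFP sum of day 1. Dnmt1, Dnmt3a, Uhrf1, Eed and Ezh2 were higher in Hes5_GFP on 4 of 4 days, and Ezh1 was lower on 4 of 4 days.

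The log2 ratios between the groups were 1.46 ± 0.24 for Dnmt3a (edgeR adjusted p = 0.0846), 1.42 ± 0.30 for Eed (0.133), 1.05 ± 0.31 for Uhrf1 (0.232), 0.65 ± 0.22 for Dnmt1 (0.284), 0.48 ± 0.21 for Ezh2 (0.391) and -1.05 ± 0.57 for Ezh1 (0.487). EdgeR thus called 0 members, where 0.399% of 10517 genes were called; 4 members had an unadjusted p below 0.05, as did 13.6% of genes. DESeq2 and limma each called 3 (Dnmt3a, Uhrf1 and Eed), beside 11.1% and 3.85% of genes. Without day 1 edgeR called Dnmt3a (1.62 ± 0.23, adjusted p = 0.04) and 2.43% of genes. The groups differed in makeup, since 88.7% of RGCs but 15.6% of ENs were Hes5_GFP cells, and on days 3 and 4 each plate held 1 group, so plate and group cannot be told apart there.

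Within RGCs the group log2 ratios were 0.56 ± 0.40 for Dnmt3a, 0.35 ± 0.46 for Eed, 0.31 ± 0.26 for Uhrf1 and 0.40 ± 0.31 for Dnmt1, beside a median of 0.39 over all genes. Ezh2 gave -0.24 ± 0.34, the reverse of its sign over all cells, and was lower in Hes5_GFP on 2 of 3 days. Ezh1 gave -2.42 ± 4.50. EdgeR called no gene (0.0% of 10405), 2.04% of genes and 0 members had an unadjusted p below 0.05, and DESeq2 called 1.23% of genes and 0 members. The class difference was also computed in each group alone. In CAG_mRFP cells the RGC to EN log2 ratios were 4.64 ± 1.10 for Uhrf1, 3.41 ± 0.89 for Eed, 1.76 ± 0.67 for Dnmt3a and 1.49 ± 0.40 for Dnmt1, with 0 members and 1.56% of genes called in edgeR. In Hes5_GFP cells edgeR called 3 members (Dnmt1, Dnmt3a and Uhrf1, but not Eed) and 4.59% of genes.

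Partners of these enzymes were taken from lists. Of 20 DNA methylation partners, 16 were tested, and for RGCs against ENs 2 were called higher and 3 lower, with a median log2 ratio of 0.29 beside 0.26 over all genes. Over all genes 5.4% were called higher and 3.66% lower. Hells, a chromatin remodeller needed for normal DNA methylation, averaged 255.9 ± 46.9 CPM (SD, n = 4 days) in RGCs and 5.65 ± 5.69 CPM (SD, n = 3 days) in ENs, a log2 ratio of 6.08 ± 0.90 (edgeR adjusted p = 0.00441). Pcna, the replication clamp, averaged 856.7 ± 116.2 and 138.5 ± 82.96 CPM, a ratio of 2.79 ± 0.33 (adjusted p = 0.00166). Zbtb38, a zinc finger protein that binds methylated CpG, averaged 48.3 ± 30.6 and 569.8 ± 147.7 CPM, a ratio of -3.90 ± 0.84 (adjusted p = 0.0244). Ogt, a sugar transferase that binds Tet proteins, gave -1.30 ± 0.23, and Tdg, the glycosylase that excises oxidised cytosines, gave -1.09 ± 0.26 (adjusted p = 0.0105 and 0.0358).

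Of 9 PRC2 partners, 8 were tested, with 1 called higher and 1 lower. For this list and those that follow, the share called over all genes was 5.4% higher and 3.66% lower. The genes named are single calls and are not read as results about their lists. The histone-binding subunit Rbbp7 averaged 575.3 ± 147.99 CPM in RGCs and 118.3 ± 81.4 in ENs (log2 ratio 2.56 ± 0.45, edgeR adjusted p = 0.0102), and Lcor, whose locus also encodes a PRC2 accessory protein, gave -2.21 ± 0.50 (adjusted p = 0.0296). Of 23 PRC1 subunits, 22 were tested. Pcgf5 was called higher, at 18.4 CPM pooled in RGCs and 0.0344 in ENs, too low there for a fold, and Auts2 lower (-1.03 ± 0.25, adjusted p = 0.0384). Of 13 enzymes that oppose Polycomb all were tested, and Kdm6b, which removes the PRC2 mark, was the 1 called, at 32.3 ± 14.4 CPM in RGCs and 181.9 ± 98.5 in ENs (log2 ratio -2.18 ± 0.37, adjusted p = 0.00856). The related demethylase Kdm6a gave -0.48 ± 0.72 (adjusted p = 0.767). Median log2 ratios were -0.048, 0.37 and 0.11 for the 3 lists. Among genes these systems are known to keep silent, 1 of 29 Hox genes and 6 of 18 germline genes could be measured, and none reached 5 CPM in any class.

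The genes most like 5 of the members were ranked by Pearson r of log2(CPM + 1) over 20 sums of sort day and author cluster, among 7187 genes. This is a description in which the sums share days and depth. Uhrf1 was closest to Chaf1a (r = 0.97), Pold1 (0.96) and Dtl (0.95), genes of DNA replication. Dnmt1 was closest to Haus6 (0.93), Nup62 (0.91) and Srsf4 (0.90). Dnmt3a was closest to Sox9 (0.94), a radial glial transcription factor, Zfp36l1 (0.94) and Sox8 (0.91). Ezh2 was closest to Tcf3 (0.83), Chtf8 (0.82) and Mtch1 (0.82), and Ezh1 to Celf4 (0.81), the glutamate receptor gene Gria2 (0.74) and Cryzl1 (0.74). Among the members, r was 0.86 for Uhrf1 and Eed, 0.68 for Dnmt1 and Uhrf1, and -0.22 for Ezh1 and Ezh2.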

How the data were processed

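The deposited count table holds the authors' estimated counts per gene and cell, as whole numbers. Set against the authors' deposited normalized table (natural log of 1 plus scaled counts), 2.80% of nonzero entries had been fractional (tolerance 0.01). The authors' mitochondrial values are a fraction of counts. HISAT2, Seurat 2 and build mm10 are named, with no role or order, in the submitters' processing notes; the sources used here do not give the counting tool, annotation, strand setting or the method of assigning classes and phases. No cell was removed, no doublet caller was run on these individually collected cells, and none had counts identical to another.

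Counts were summed per sort day and class, phase or group (at least 10 cells). EdgeR 4.0.16 (quasi-likelihood, R 4.3.3) was fitted with day as a block, total counts as library size and genes of at least 5 pooled CPM in a level. Pairing rests on the sort date in the authors' cell table; a day also holds session differences. Adjusted p-values are Benjamini-Hochberg values over all genes tested, called at 0.05. DESeq2 1.42.0, limma 3.58.1 on log2(mean CPM + 1), other scalings, filters and cell subsets, and left-out days were alternatives; plate as the unit and the fits without cluster 7 or the shallow plate were added after seeing the data. The fits were tested on simulated data. The members, lists and tests were chosen with earlier results of these data known. Named partners are list genes called for RGCs against ENs (at most 8 in each direction), and the 3 likest genes had at least 20 mean CPM. Exon lengths come from GENCODE M21. Intervals cover counting error only, and reads without molecular identifiers are not independent molecules.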

Additional observations from a re-analysis of the deposited data

Results flagged for a closer look

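In 50 sets of 4 daily values, 6 had a highest or lowest day that stood apart by a gap test; chance alone marks about 1 in 20 sets. In IPCs, day 1 stood apart for Ezh1 (79.4 CPM against 16.6 to 20.1 on the other days) and for Tet2 (0.274 CPM against 61.5 to 62.5); that sum holds 12 cells. In CAG_mRFP cells, Dnmt3a on day 1 was at 131.5 CPM against 38.9 to 53.6. In Hes5_GFP cells, Suz12 on day 4 was at 46.99 CPM against 23.3 to 25.3, Tet1 on day 1 at 96.7 CPM against 40.8 to 46.1 and Tet3 on day 2 at 101.8 CPM against 46.7 to 55.8.

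Eed had opposite signs between the sorted groups in progenitors and in neurons. Its log2 ratio of Hes5_GFP to CAG_mRFP was 0.56, 0.20 and 0.26 on the 3 days of RGCs and 0.43 and 0.46 on the 2 days of IPCs, but -1.10 and -2.17 on days 3 and 4 of ENs, with 1 CPM added to each level. In ENs it measured 6.55 and 0 CPM in Hes5_GFP and, on days 2 to 4, 16.7, 15.2 and 3.50 CPM in CAG_mRFP. The 21 Hes5_GFP ENs of day 4 held 0 Eed counts (3 counts would be 0.429 CPM), so the ratio of that day is set by the added CPM. The mean ratios differed by 1.98 between RGCs and ENs and by 2.08 between IPCs and ENs. These differences rest on that ratio and were not tested, and 4.86% of ENs had an Eed count.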

How the results depend on the processing

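Classes and groups share the sort day. Without the replicate block the Ezh2 to Ezh1 balance of RGCs exceeded that of ENs by 2.13 (exact permutation p = 0.0286, past 0.05). That is the smallest p that 4 RGC and 3 EN daily values allow when shuffled as unpaired. It restates that the values did not overlap and ignores the shared days. In G1 cells edgeR without the block called 1 member, not 0, and no other count of members moved. With a day left out, members called were 2 to 4 for RGCs against ENs, 1 to 3 for IPCs against ENs (1 without day 2) and 0 to 1 between the groups, and the balance of RGCs minus IPCs was -0.088 to 0.54. CAG_mRFP cells alone gave 0 members for RGCs against ENs. For RGCs against IPCs, DESeq2, limma and the plate as the unit, with or without the shallow plate, each called 1 (Dnmt3a). In G1 cells, no filter and Hes5_GFP cells only each called 1, DESeq2 4 and limma 2. For G2M against G1, DESeq2 and the fit without cluster 7 each called 1, and for the groups DESeq2 and limma each called 3. In G1 cells the balance of RGCs minus IPCs was -5.62, with Ezh1 at 0 in those IPCs.

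Signs turned for ratios that edgeR did not call. For RGCs against ENs, Tet1 gave 0.068 without the block, 0.42 in limma and -0.48 to 0.17 with a day left out, and Tet2 0.27 in limma and -0.66 to 0.80 with a day left out. Suz12 gave 0.043 without the block, 0.90 in limma, 0.60 with at least 20 cells per sum, 1.37 in Hes5_GFP cells, 0.16 by plate without the shallow plate and -1.04 to 0.26 with a day left out. Ezh2 gave -0.0038 with at least 20 cells per sum, -0.10 in Hes5_GFP cells and, in G1 cells, 0.059 without the block. Dnmt3a for IPCs against ENs gave -0.55 by plate and -0.26 without the shallow plate. For G2M against G1, limma gave -0.020 for Dnmt1 and -0.023 for Ezh2, and Dnmt1 gave -0.022 to 0.49 with a day left out. The cause was not tested.

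Over all genes, the share called ranged between alternatives, with the main value in brackets, from 1.56% to 24% (9.06%) for RGCs against ENs, 0.181% to 11% (1.43%) for RGCs against IPCs, 0.879% to 14.3% (4.15%) for IPCs against ENs, 1.54% to 23.4% (3.27%) in G1, 0% to 1.25% (0%) for S and 0% to 1.96% (0.102%) for G2M against G1, 0% to 11.1% (0.399%) between groups and 0% to 1.23% (0%) within RGCs, the highest each time from DESeq2. TMM moved the median log2 ratio of all genes for RGCs against ENs to 0.15, and median-of-ratios factors moved that within RGCs to 0.20. Without day 3 or 4 the G1 fit could not be made. Thinning cells to 50000 counts moved the share with an Ezh1 count from 5.03% to 4.59% in RGCs and from 9.03% to 9.09% in ENs.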
